A study of Mus musculus with 59 samples.

Results

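The canonical Wnt pathway was followed through 39 named genes in the prefrontal cortex of young mice, across genotype, drug and sex. The members were chosen by name and by role, with earlier results of these data known. They are 6 ligands, 10 receptors, 5 dishevelled and Frat proteins, 6 destruction complex components, 5 effectors, 4 secreted antagonists and 3 feedback inhibitors. All 39 were found by gene identifier among the 18088 genes of the deposited table, none was missing, and all 39 passed the filter on low values. Most of what follows concerns lithium, under which 14 of the 39 were called lower than in vehicle. Lower calls covered 5.74% of all genes tested. Without 12 libraries high in olfactory bulb markers, described below, 8 of the 14 remained.

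The mice were C57BL/6J and either heterozygous for Ash1l (HT) or wild-type (WT); Ash1l encodes a histone methyltransferase. Vehicle, fluoxetine or lithium reached the pups through the mother's milk over 3 weeks, from postnatal day 3 to 24, and tissue was taken on postnatal day 25. The 59 libraries, from stranded, polyadenylated RNA, fall into 12 groups of 5, except HT lithium females with 4; 29 were HT and 30 WT, 19 lithium, 20 fluoxetine and 20 vehicle, 29 female and 30 male. The labels name neither dam nor litter, and as dosing was maternal, drug and litter cannot be told apart. The p-values thus describe only how far these samples spread.

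In canonical Wnt signalling, a secreted Wnt ligand (or norrin, the product of Ndp) binds a Frizzled receptor with the co-receptor Lrp5 or Lrp6. Dishevelled then restrains the destruction complex of Axin, Apc, casein kinase 1 and glycogen synthase kinase 3, which otherwise marks beta-catenin for breakdown. Stabilised beta-catenin joins Tcf and Lef factors at target genes such as Axin2. In the brain the pathway is known for cortical patterning, for synapse formation and, in endothelium, for the blood-brain barrier. Lithium is a known inhibitor of glycogen synthase kinase 3, and fluoxetine of serotonin reuptake.

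Values are normalised read counts, that is read counts divided by a size factor for each library; depth was 24.5 M to 36.3 M reads. Ash1l itself ran from 3641 to 4382 in HT and from 4703 to 6218 in WT, with 1 exception: WT vehicle female replicate 3, as labelled, held 3557, below every HT library. It is named by its label throughout. That library also held the highest summed endothelial (11598), meningeal (9148) and choroid plexus (7688) markers and the lowest summed astrocyte markers (86471) of all 59. All 8 cortical excitatory neuron markers checked against the tissue label were present in every library, Slc17a7 at 28945 to 59313. In 12 libraries the summed level of 6 genes of olfactory bulb and immature interneurons (Synpr, Dlx1, Dlx2, Sp8, Sp9 and Dcx) exceeded 2 times the median of all libraries (7549.8). These libraries, called olfactory-high below, were 3 of the HT vehicle females, 2 of the WT vehicle males, 2 of the HT fluoxetine females, 2 of the WT lithium females, and 1 each of the HT fluoxetine males, HT vehicle males and WT fluoxetine females. Where a printed difference of a member lost its call without them, both values or the number of calls that remained are given. Marker genes and other pathway genes were not checked in this way.

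Levels per kilobase of merged exons spanned a wide range. Ctnnb1, which encodes beta-catenin, was the most abundant member, with a median of 3407 normalised counts per kilobase over the 59 libraries. The extracellular glycoprotein gene Dkk3 followed at 2190.5 and the scaffold gene Apc at 1845. Fzd3, a receptor known for axon guidance, led the Frizzled genes at 351, and Wnt7b led the ligands at 277. At the low end stood Lef1 at 18.5, Wif1 at 17.9, Tcf7l2 at 14.3, the ubiquitin ligase gene Rnf43 at 10.7 and Fzd5 at 6.33. The Tcf and Lef genes were far below Ctnnb1 on this scale, Tcf7 being the highest of them at 46.5.

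**Figure D1:**
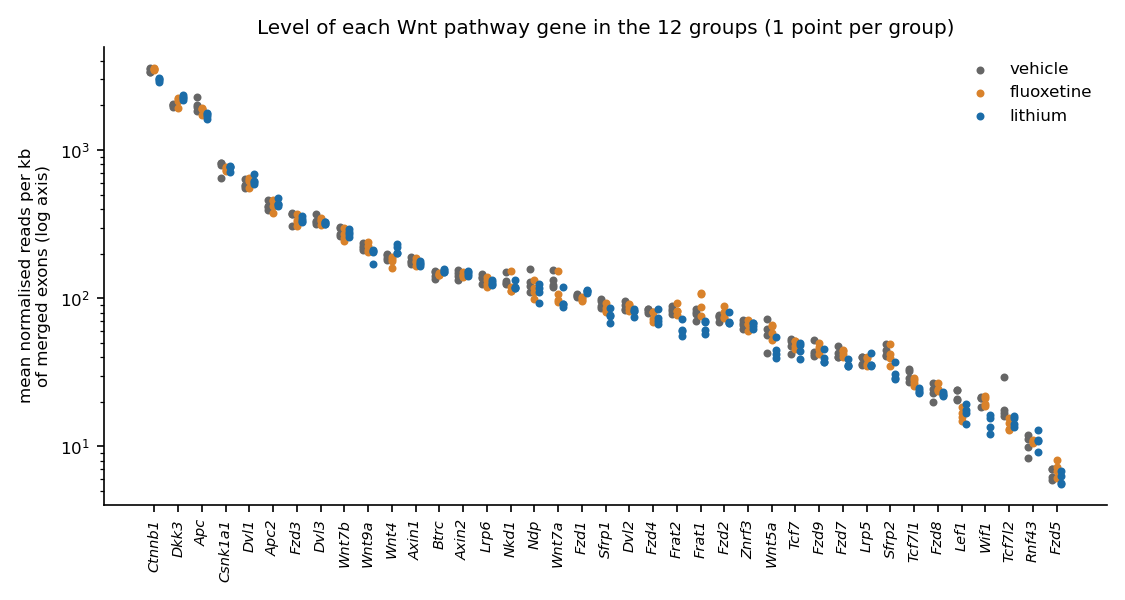
Mean normalised count per kilobase of merged exons (log axis) of the 39 members in each of the 12 groups, ordered by level and coloured by drug. Ctnnb1, Dkk3 and Apc stand at the top with medians of 3407, 2190.5 and 1845, and Fzd5 at the bottom with 6.33.

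Promoter windows are shown for the neighbouring genes Frat1 and Frat2, each called lower with lithium, and for Ctnnb1, the most abundant member. With fluoxetine only Frat1 of the pair was called. Also shown are Fzd7 and Ndp, called members whose only window holds a Tcf/Lef match. Lef1, also called, has several windows, and the 1 with a match (TACAAAG at -147) is not shown. Another Ctnnb1 window (chr9:120933328-120933627), without a match, is not shown either. The windows run from 250 bases before to 50 bases after a start site (RefSeq, GRCm38.p6), 5′ to 3′ on the gene's strand. The Frat1 window is chr19:41829720-41830019, plus strand, and the Frat2 window chr19:41848083-41848382, minus strand; between the end of the Frat1 gene and the nearest base of the Frat2 gene lie 13388 bases. Capitals mark the longest run of bases that their windows share, 63 bases, from -13 to 50 around the Frat1 start and from -17 to 46 around the Frat2 start. Most of the run lies after the start sites, and any part of it in the levels of these genes was not tested.
Frat1: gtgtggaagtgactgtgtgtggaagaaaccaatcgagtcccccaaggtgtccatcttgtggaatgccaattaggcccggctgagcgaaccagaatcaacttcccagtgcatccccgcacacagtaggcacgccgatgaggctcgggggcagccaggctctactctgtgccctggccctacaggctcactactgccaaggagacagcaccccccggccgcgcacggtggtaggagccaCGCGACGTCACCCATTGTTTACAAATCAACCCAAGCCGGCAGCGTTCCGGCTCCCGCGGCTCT
Frat2: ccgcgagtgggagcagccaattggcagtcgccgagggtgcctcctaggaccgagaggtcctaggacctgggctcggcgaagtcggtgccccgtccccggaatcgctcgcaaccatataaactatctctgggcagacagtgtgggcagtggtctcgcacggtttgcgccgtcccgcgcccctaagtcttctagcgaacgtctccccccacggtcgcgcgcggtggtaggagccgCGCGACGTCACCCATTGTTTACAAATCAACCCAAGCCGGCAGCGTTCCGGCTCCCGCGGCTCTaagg
The remaining windows are those of Ctnnb1 (chr9:120933150-120933449, plus strand), Fzd7 (chr1:59481897-59482196, plus strand) and Ndp (chrX:16911725-16912024, minus strand). Capitals mark the Tcf/Lef matches: AACAAAG in Fzd7 at -130, and TACAAAG read from the opposite strand in Ndp at -171, where it appears reversed and complemented. Ctnnb1 has no capitals.
Ctnnb1: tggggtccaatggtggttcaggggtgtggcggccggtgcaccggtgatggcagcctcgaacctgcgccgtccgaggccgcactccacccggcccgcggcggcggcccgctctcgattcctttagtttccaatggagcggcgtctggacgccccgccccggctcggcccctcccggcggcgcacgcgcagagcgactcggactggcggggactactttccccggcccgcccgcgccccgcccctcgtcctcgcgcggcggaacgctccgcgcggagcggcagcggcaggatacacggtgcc
Fzd7: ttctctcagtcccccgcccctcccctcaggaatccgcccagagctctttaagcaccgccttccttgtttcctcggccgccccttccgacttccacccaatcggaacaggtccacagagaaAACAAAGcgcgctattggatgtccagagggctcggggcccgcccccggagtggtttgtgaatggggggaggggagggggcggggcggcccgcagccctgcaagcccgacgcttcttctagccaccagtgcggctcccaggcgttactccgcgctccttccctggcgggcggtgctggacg
Ndp: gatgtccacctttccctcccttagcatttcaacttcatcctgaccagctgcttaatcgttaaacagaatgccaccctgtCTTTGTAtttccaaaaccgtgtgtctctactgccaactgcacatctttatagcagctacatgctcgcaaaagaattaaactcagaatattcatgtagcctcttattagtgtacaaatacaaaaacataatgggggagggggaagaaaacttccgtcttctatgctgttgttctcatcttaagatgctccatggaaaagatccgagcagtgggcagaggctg
The motif was searched on both strands as NNCAAAG, in which each N was A or T. Of 35 windows found for 25 members, 5 (14.3%) held it, in Fzd7, Lef1, Apc2, Tcf7l2 and Ndp, against 16.9% of all 32851 windows. A match is a run of letters, not a binding site. Not matched were Wnt5a, Wnt7b, Fzd2, Fzd3, Fzd8, Lrp5, Lrp6, Axin1, Apc, Csnk1a1, Btrc, Sfrp1, Dkk3 and Znrf3. The members' windows had a median of 66.7% G and C, and all windows 52.7%.

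Lithium against vehicle asked which pathway genes differed after drug exposure, averaged with equal weight over genotype and sex. With limma no member rose and 14 of 39 (35.9%) fell, while 13.1% of all genes tested passed (5.74% lower and 7.39% higher). As the members were chosen with earlier results of these data known, these shares stand side by side and are no test of the pathway. By role, 3 of 6 ligands fell, 2 of 10 receptors, 2 of 5 dishevelled and Frat genes, 1 of 6 destruction complex genes, 3 of 5 effectors, 3 of 4 secreted antagonists and 0 of 3 feedback inhibitors. The median log2 fold change of the members was -0.10, with 31 below 0, against 0.0039 over all genes tested. In bulk tissue, fewer cells of a type and less RNA per cell cannot be told apart. Without the 12 libraries high in the olfactory list, 8 of the 14 remained past the threshold: Ndp, Lrp6, Frat2, Apc, Ctnnb1, Lef1, Tcf7l1 and Wif1. After removal of the trend with GC content and gene length 19 passed, 17 lower and 2 higher, the 14 among them.

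**Figure D2:**
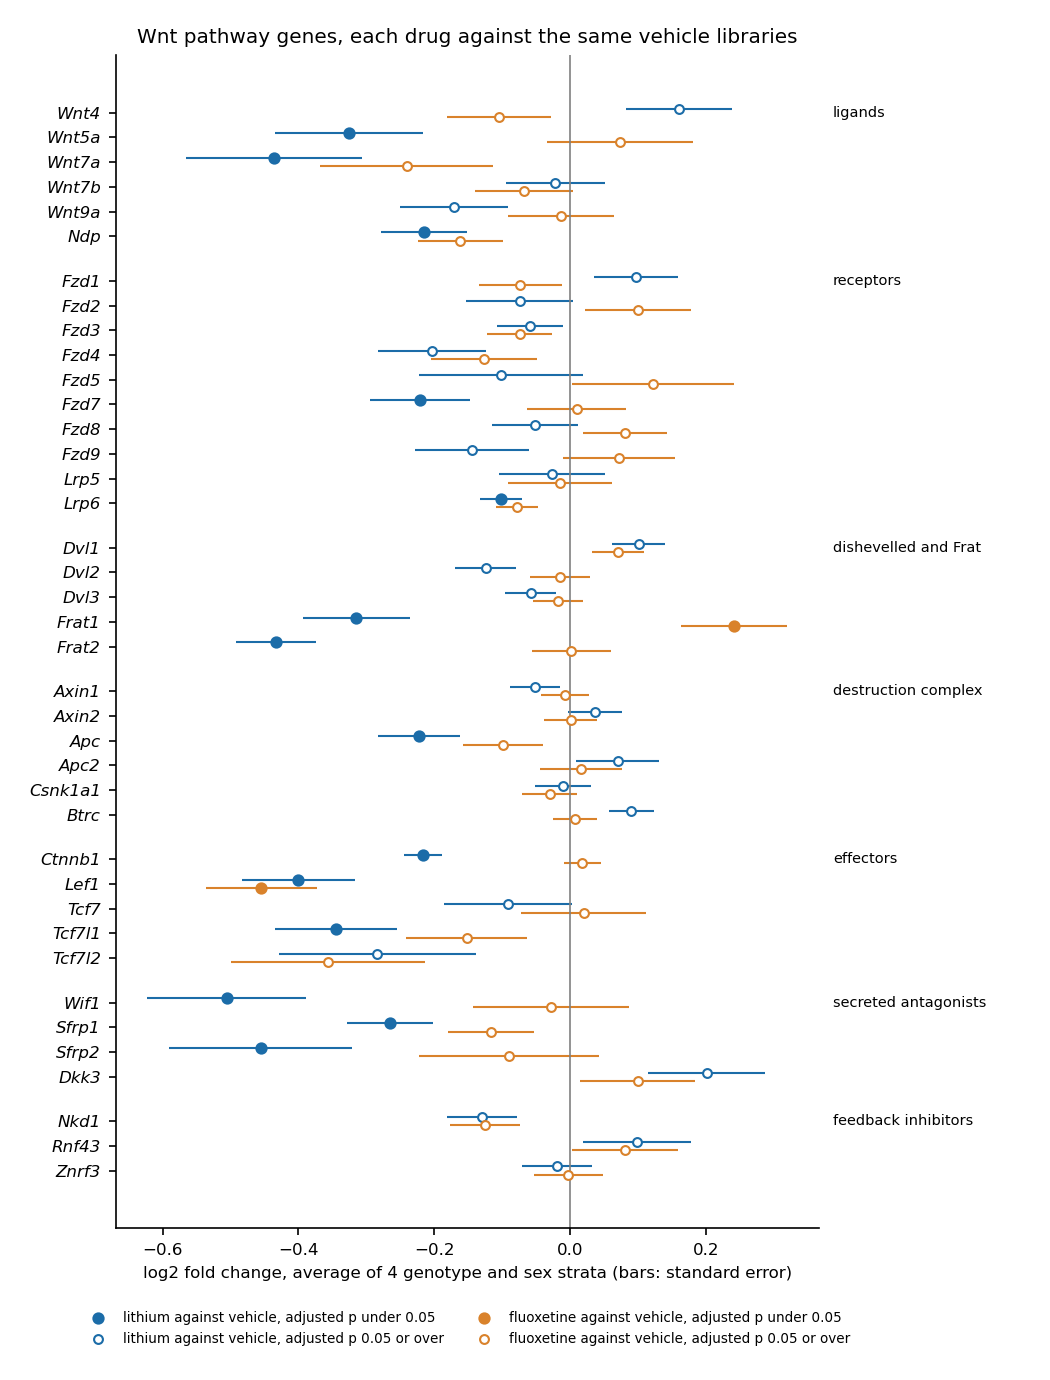
Log2 fold change (± standard error, limma) of the 39 members with lithium and with fluoxetine against vehicle, ordered by role; filled points have an adjusted p under 0.05. With lithium 14 members are filled, all to the left of 0, and with fluoxetine Frat1 to the right and Lef1 to the left.

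Beta-catenin transcript gave the clearest difference. In lithium, Ctnnb1 (ENSMUSG00000006932, chr9:120929216-120960507, plus strand) had a lowest, median and highest normalised count of 14306, 15658 and 16619.9; in vehicle these were 14053, 18193 and 20753, and in fluoxetine 16582, 18308 and 19525. All 19 lithium libraries lay below 19 of the 20 vehicle libraries, whose next lowest value was 16938; the exception at 14053 was the library labelled WT vehicle female replicate 3. The log2 fold change (± standard error, as for all fold changes here) with lithium was -0.22 ± 0.028, limma adjusted p = 6.11e-07, or 13.9% lower. Against fluoxetine it was -0.23 ± 0.028, limma adjusted p = 2.89e-08, and lithium and fluoxetine libraries did not overlap in any of the 4 genotype and sex strata. Fluoxetine itself gave 0.02 ± 0.028, limma adjusted p = 0.717 (95% interval -0.04 to 0.07). Across the groups, the mean (± SD, n = 5) was 18414 ± 641 in HT vehicle females, 18662 ± 1223 in HT vehicle males, 17505 ± 2026 in WT vehicle females and 17486 ± 494 in WT vehicle males. In lithium it was 15344 ± 836 in HT females (n = 4), 15048 ± 633 in HT males, 15946 ± 496 in WT females and 15604 ± 555 in WT males. Fluoxetine group means ran from 17910 in HT males to 18466 in WT females. The fall was -0.29 ± 0.04, limma adjusted p = 1.26e-05 in HT mice and -0.15 ± 0.039, limma adjusted p = 0.0387 in WT mice, and the test of the difference between genotypes did not pass (-0.14 ± 0.056, limma adjusted p = 0.445). The WT call was lost on leaving out any 1 of 11 libraries (limma adjusted p up to 0.0827): WT lithium female 2, 4 and 5, WT lithium male 1 and 2, WT vehicle female 1, 2 and 4, and WT vehicle male 1, 3 and 4. Without the olfactory-high libraries it was -0.13 (limma adjusted p = 0.173). The average over all mice kept its call in each of these settings. The Ctnnb1 locus overlaps Ulk4 on the opposite strand. Other members overlapping a measured gene there are Wnt7b (AU022754), Fzd5 (Gm38058), Dvl1 (Tas1r3), Dvl2 (Acadvl), Apc (Gm10548) and Apc2 (2310011J03Rik). The reads of these genes may not be fully separable. Tcf7l1 overlaps Gm37969 on its own strand, but of the 3947 31-base words in its transcripts 0 occur in another gene. These overlaps are of whole gene spans.

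The Frat proteins bind glycogen synthase kinase 3 and keep it from the Axin complex. Frat2 (ENSMUSG00000047604, chr19:41845972-41848132, minus strand) had a lowest, median and highest value of 97.2, 128 and 174 in lithium, 137, 179.6 and 228 in vehicle and 151, 178 and 234 in fluoxetine. All 19 lithium libraries lay below the vehicle mean of their genotype and sex, and in 2 of 4 strata the groups did not overlap. Its log2 fold change was -0.43 ± 0.059, limma adjusted p = 1.02e-06 against vehicle, or 25.9% lower, and -0.43 ± 0.059, limma adjusted p = 4.38e-07 against fluoxetine. With fluoxetine it was 0.00 ± 0.058, limma adjusted p = 0.991. Its group means (± SD) in lithium were 129.7 ± 24.6 in HT females, 119 ± 15 in HT males, 155 ± 20.7 in WT females and 132 ± 20.1 in WT males, against vehicle means of 170.1 ± 27.8, 176 ± 22, 182 ± 13.9 and 192 ± 24.2 in the same order.

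Frat1 (ENSMUSG00000067199, chr19:41829970-41832583, plus strand), the neighbour of Frat2, was lower with lithium and higher with fluoxetine. Its lowest, median and highest values were 81.6, 165 and 225 in lithium, 151, 201 and 278 in vehicle and 178, 253 and 320.0 in fluoxetine. The 3 ranges overlapped, with the lowest lithium value in an HT male. Lithium gave -0.32 ± 0.079, limma adjusted p = 0.00483 (15 of 19 libraries below their vehicle mean), fluoxetine 0.24 ± 0.078, limma adjusted p = 0.0296 (13 of 20 above), and lithium against fluoxetine -0.56 ± 0.079, limma adjusted p = 1.17e-06 (18 of 19 below), or 32.0% lower. These comparisons share libraries, so the values stand side by side and are not independent. The fluoxetine group means were 198 ± 18.4 in HT females, 277 ± 58.8 in HT males, 282 ± 22.8 in WT females and 227 ± 30.3 in WT males; the HT females lay below their vehicle mean of 211 ± 23.8 and the other groups above theirs. The fluoxetine call ended without HT fluoxetine male replicate 4 (0.23, adjusted p = 0.0511) and after removal of the GC content and length trend (0.20, adjusted p = 0.0621), and without the olfactory-high libraries it was 0.28 (adjusted p = 0.0692); the lithium value without the latter was -0.26 (adjusted p = 0.0888). Of the 31-base words in Frat1 transcripts, 8.44% also occur in another gene, mostly in Frat2, and of those in Frat2 transcripts 8.31%, mostly in Frat1, so part of the reads could be split between them. Among dishevelled genes, which relay the receptor signal, none passed with limma: Dvl1 gave 0.10 (limma adjusted p = 0.0742), Dvl2 -0.12 (limma adjusted p = 0.057) and Dvl3 -0.06 (limma adjusted p = 0.323). Dvl2 was called lower with edgeR (-0.13, adjusted p = 0.0437), DESeq2 (-0.13, adjusted p = 0.0367), the filter at 50 (-0.12, adjusted p = 0.0484), without WT vehicle female 3 and WT vehicle male 2 (-0.13, adjusted p = 0.0345), and after the GC content and length removal (-0.16, adjusted p = 0.00116). Dvl1 was called higher after that removal (0.08, adjusted p = 0.0382). Over all 59 libraries Dvl1 ran from 2075 to 3809, Dvl2 from 427 to 712 and Dvl3 from 1794 to 2676.

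**Figure D3:**
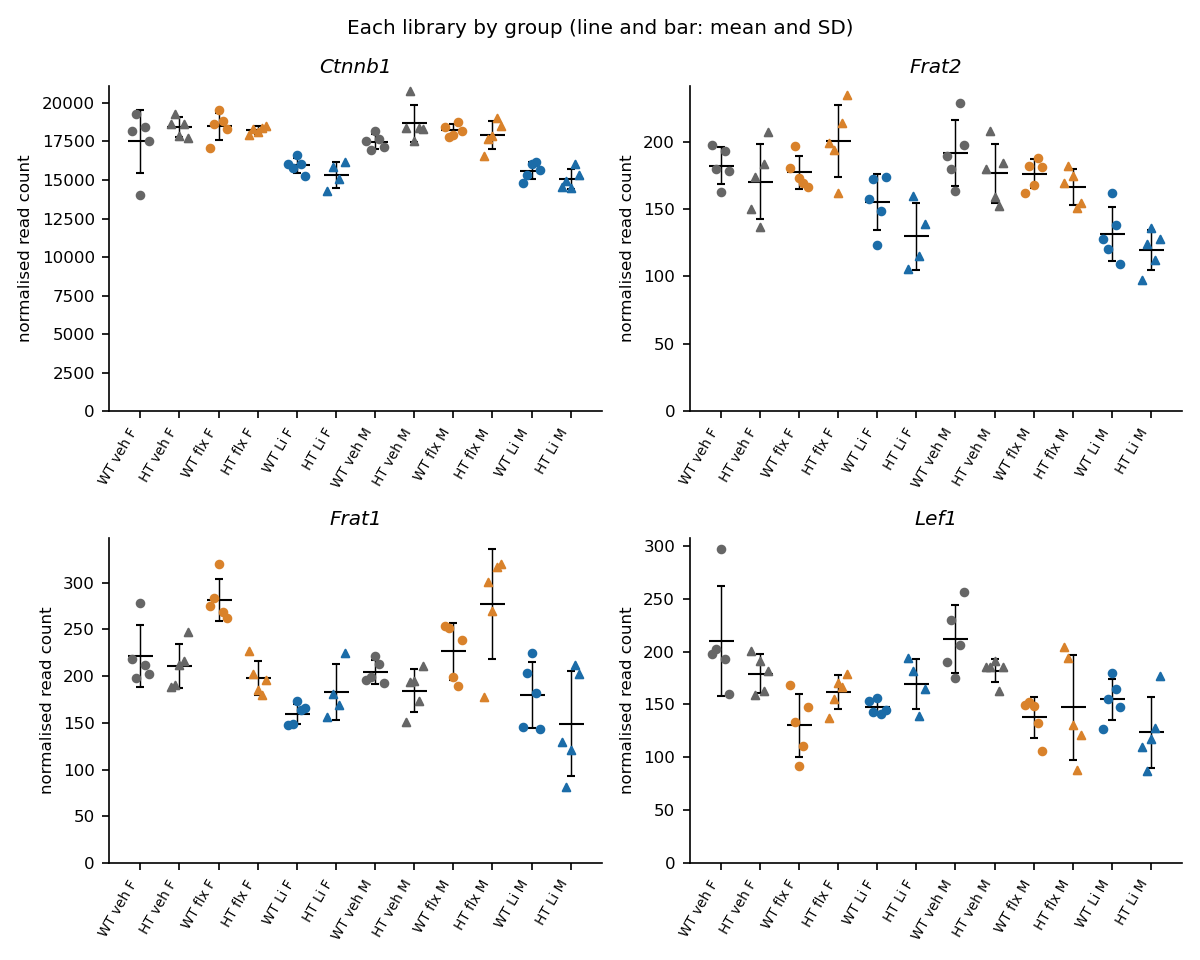
Normalised count of Ctnnb1, Frat2, Frat1 and Lef1 in each of the 59 libraries by group, with the group mean and SD; circles are WT and triangles HT. The lithium libraries of Ctnnb1 end at 16619.9, below 19 of 20 vehicle libraries, and those of Frat1 sit under its fluoxetine libraries with an overlap.

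Of the Tcf and Lef factors, which bring beta-catenin to DNA, Lef1 was lower with either drug. Lef1 (ENSMUSG00000027985, chr3:131110471-131224356, plus strand) had a lowest, median and highest value of 159, 191 and 297 in vehicle, 87.5, 148 and 204 in fluoxetine and 86.9, 147 and 194 in lithium. Its highest value was that of WT vehicle female replicate 3, as labelled, and the groups overlapped except in 1 of 4 strata for each drug. Lithium gave -0.40 ± 0.083, limma adjusted p = 0.000689, with 17 of 19 libraries below their vehicle mean. Fluoxetine gave -0.45 ± 0.082, limma adjusted p = 0.000119, with 18 of 20 below, and lithium against fluoxetine 0.05 ± 0.083, limma adjusted p = 0.718 (95% interval -0.11 to 0.22). The drug comparisons share the vehicle libraries; without WT vehicle female 3 and WT vehicle male 2 the values were -0.36 (adjusted p = 0.00197) and -0.41 (adjusted p = 0.000373). Group means (± SD) were 210.1 ± 51.7 in WT vehicle females and 212 ± 32.2 in WT vehicle males, against 130.3 ± 30.0 and 138 ± 19.1 with fluoxetine. In HT mice they were 179 ± 18.2 and 182 ± 10.9 in vehicle, 161 ± 16 and 147 ± 49.8 with fluoxetine. The fluoxetine fall in WT mice, -0.65 ± 0.12, limma adjusted p = 0.000247, kept its call on leaving out any 1 library; in HT mice the value was -0.26 ± 0.12, limma adjusted p = 0.171, and the difference between genotypes did not pass (0.39 ± 0.16, limma adjusted p = 0.296).

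Endothelial markers moved alongside Lef1, which brain endothelium is known to express. Of 7 endothelial genes, 5 fell with lithium (Cldn5, Pecam1, Flt1, Kdr and Cdh5) and Ly6c1 rose, and the same 5 fell with fluoxetine. Over all genes tested, 5.74% were lower and 7.39% higher with lithium. With fluoxetine these shares were 6.6% and 6.94%. The summed list ran from 6717 to 11598 (median 7624) in vehicle, from 6165 to 7617 (median 6809) in lithium and from 5596 to 7539 (median 6620) in fluoxetine. Of 7 meningeal fibroblast genes, 4 fell with lithium (Dcn, Col1a1, Col3a1 and Igf2), with sums of 3996 to 9148 in vehicle and 4465 to 6924 in lithium, and 0 with fluoxetine. Of 8 astrocyte genes, 3 fell with lithium (Aqp4, Gja1 and Slc1a3), with sums of 86471 to 162268 in vehicle and 109697 to 139323 in lithium. With fluoxetine Aqp4 and Gja1 fell and Fgfr3 rose, with sums of 94911 to 144258. Of 4 microglial genes, Cx3cr1 and P2ry12 fell with lithium and P2ry12 with fluoxetine, with sums of 4652 to 7336 in vehicle, 4339.6 to 6288 in lithium and 4370.4 to 6904 in fluoxetine. Of 4 mural cell genes, Rgs5 fell with both drugs and Pdgfrb rose with fluoxetine, with sums of 5582 to 9071 in vehicle, 5357 to 6957 in lithium and 4422 to 7022 in fluoxetine. The interneuron gene Pvalb, 1 of 5 listed, rose with lithium (0.38, adjusted p = 0.00165), with list sums of 16510.4 to 28956 in vehicle and 17827 to 25537 in lithium. Single genes also passed in the lists of excitatory neurons (Rorb, lower with lithium), newly formed oligodendrocytes (Gpr17, lower with fluoxetine), oligodendrocyte precursors (Cspg4, higher with fluoxetine) and thalamus (Rora, lower with fluoxetine). None of these genes was at 0 in any library, and the part of these cells in the members' values was not tested. The vehicle sums of 11598 (endothelial), 9148 (meningeal) and 86471 (astrocyte) are those of WT vehicle female replicate 3, as labelled. The marker calls were not repeated without that library.

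**Figure D4:**
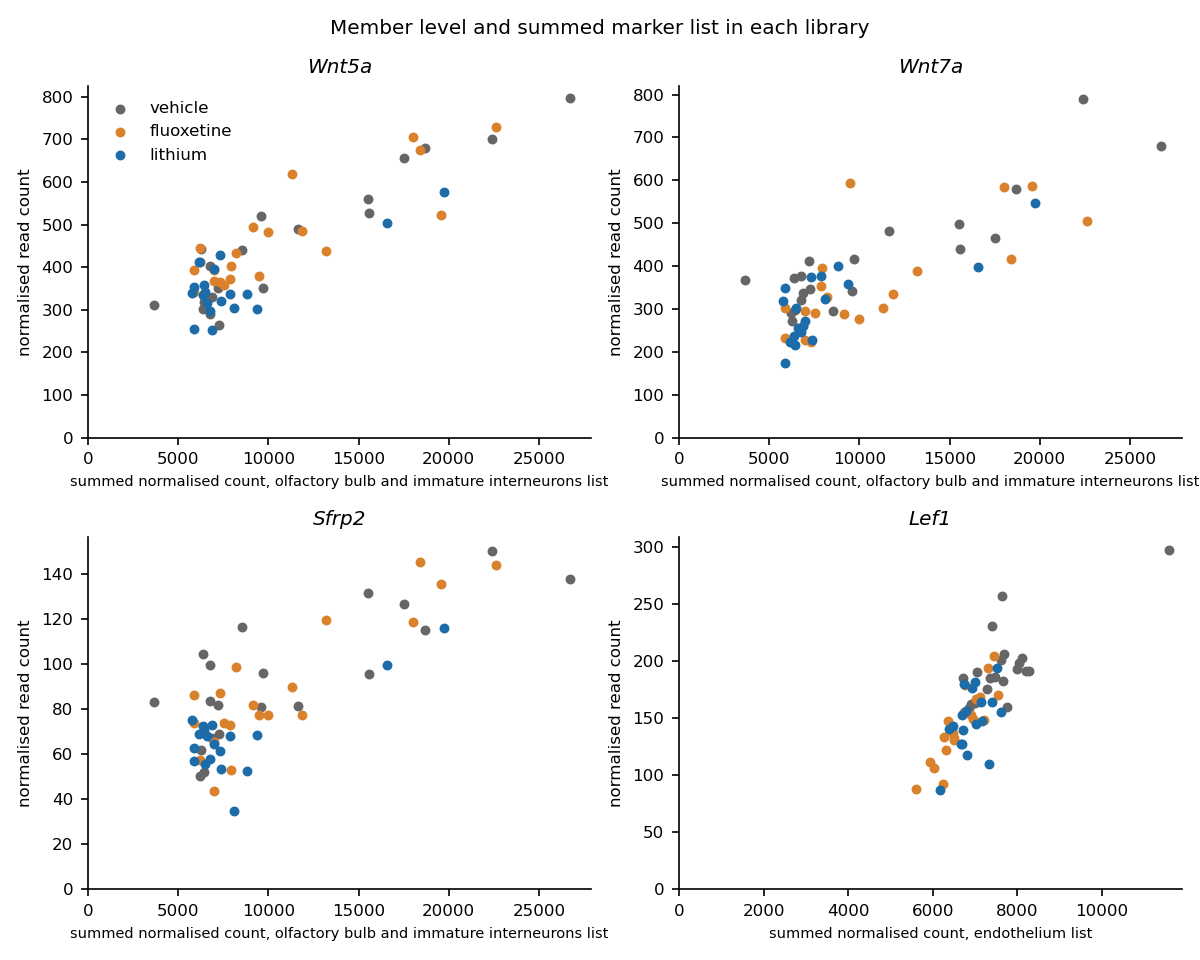
Normalised counts of Wnt5a, Wnt7a and Sfrp2 in each library against the summed olfactory bulb list, and of Lef1 against the summed endothelial list, coloured by drug. The libraries with the highest olfactory sums, up to 26736, carry most of the high Wnt5a, Wnt7a and Sfrp2 values, and the highest Lef1 value (297) is in the library with the highest endothelial sum (11598).

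Tcf7l1 (ENSMUSG00000055799, chr6:72626378-72789254, minus strand), usually a repressor of Wnt targets, had a lowest, median and highest value of 67.5, 117 and 167 in vehicle and 68.5, 92.3 and 128 in lithium, ranges that overlapped. It fell with lithium (-0.34 ± 0.09, limma adjusted p = 0.00692) and not past the threshold with fluoxetine (-0.15 ± 0.089, limma adjusted p = 0.259). Tcf7l2 (ENSMUSG00000024985, chr19:55741820-55933654, plus strand), a main partner of beta-catenin in thalamus and elsewhere, was measured at 100.3, 141 and 773 in vehicle, 67.4, 119.7 and 178 in fluoxetine and 85.9, 120.0 and 242 in lithium. The value of 773 belongs to WT vehicle female replicate 3, as labelled, whose summed thalamic markers (6915) ranked 10 of 59. That sum includes Calb2, which alone ran from 310 to 6294 over all libraries, so the rank may follow that gene. Lithium gave -0.28 ± 0.15, limma adjusted p = 0.197 and fluoxetine -0.36 ± 0.14, limma adjusted p = 0.0866; without that library and WT vehicle male replicate 2 the values were -0.15 (adjusted p = 0.346) and -0.23 (adjusted p = 0.131). On recovered reads, edgeR (-0.48, adjusted p = 0.0392) and DESeq2 (-0.47, adjusted p = 0.0286) passed the fluoxetine difference. Tcf7 did not pass, with -0.09 (limma adjusted p = 0.572) for lithium and 0.02 (limma adjusted p = 0.919) for fluoxetine, and ran from 68.8 to 201 over all libraries.

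In the destruction complex, only the scaffold gene Apc was called by limma with lithium. Apc (ENSMUSG00000005871) ran from 23627 to 31429 in lithium, 22552 to 33231 in fluoxetine and 16149 to 47529 in vehicle, with medians of 28234, 30416 and 32839. The vehicle extremes were WT vehicle female replicate 3, as labelled (lowest), and WT vehicle male replicate 2 (highest), and lithium lay within them, with 18 of 19 libraries below their vehicle mean. Apc fell by 0.22 on the log2 scale (-0.22 ± 0.06, limma adjusted p = 0.00959), and without those libraries the value was -0.25 (adjusted p = 3.83e-05). Axin2 (ENSMUSG00000000142, chr11:108920349-108950783, plus strand), a direct target of beta-catenin and a feedback inhibitor in the same complex, showed no difference past the threshold. Its lowest, median and highest values were 641, 798 and 947 in vehicle, 677, 818 and 924 in lithium and 707, 777 and 934 in fluoxetine. Lithium gave 0.04 ± 0.039, limma adjusted p = 0.591 (95% interval -0.04 to 0.11), and fluoxetine 0.00 ± 0.039, limma adjusted p = 0.993 (-0.08 to 0.08). Its group means ran from 727 ± 51.4 in HT vehicle males to 853 ± 21.0 in WT vehicle males, so neither lithium nor fluoxetine groups lay outside the vehicle range. The paralogues Axin1 (-0.05, limma adjusted p = 0.38) and Apc2 (0.07, limma adjusted p = 0.491), the kinase gene Csnk1a1 (-0.01, limma adjusted p = 0.892) and the ubiquitin ligase subunit gene Btrc (0.09, limma adjusted p = 0.0601) did not pass either. After removal of the GC content and length trend, Axin1 was called lower (-0.09, adjusted p = 0.0423) and Btrc higher (0.09, adjusted p = 0.0233). Over all libraries Axin1 ran from 564 to 826, Apc2 from 3110.3 to 6553, Csnk1a1 from 5124 to 10287 and Btrc from 1777 to 2898.

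Among ligands, Wnt5a, Wnt7a and Ndp fell with lithium. Wnt5a (ENSMUSG00000021994, chr14:28504750-28527448, plus strand), best known for signalling outside the beta-catenin branch, had a lowest, median and highest value of 263, 426 and 798 in vehicle, 341, 435 and 729 in fluoxetine and 254, 337 and 577 in lithium. Wnt7a (ENSMUSG00000030093, chr6:91363981-91411363, minus strand), a ligand of brain vessels and synapses, had 271, 374 and 789, 223, 315 and 594 and 175, 303 and 548 in the same order. All these ranges overlapped, and 11 of the 12 highest Wnt5a libraries and 10 of the 12 highest Wnt7a libraries were high in the olfactory list. Lithium gave -0.33 ± 0.11, limma adjusted p = 0.0382 for Wnt5a and -0.44 ± 0.13, limma adjusted p = 0.0183 for Wnt7a, with 15 and 16 of 19 libraries below their vehicle mean. Without the olfactory-high libraries the values were -0.17 (adjusted p = 0.216) and -0.25 (adjusted p = 0.17). None of the 6 listed olfactory genes passed with lithium, and their sum ran from 3639 to 26736 (median 7892) in vehicle and from 5742 to 19728 (median 6867) in lithium, with none at 0.

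The Wnt5a call with lithium was also lost on leaving out any 1 of 16 libraries, with adjusted p up to 0.0701. These were HT lithium female replicates 1 and 3, HT lithium male 2, HT vehicle female 2, 4 and 5, HT vehicle male 3 and 5, WT lithium female 3, 4 and 5, WT lithium male 2 and 3, WT vehicle female 1, and WT vehicle male 1 and 3. Against fluoxetine, the Wnt5a difference was -0.40 ± 0.11, limma adjusted p = 0.00927, a value that without the olfactory-high libraries was -0.34 (adjusted p = 0.00533). Wnt4 (ENSMUSG00000036856, chr4:137277489-137299726, plus strand), a ligand with a role in reproductive tract and kidney development, was the 1 member higher with lithium than with fluoxetine. It measured 612, 932 and 1182 in lithium, 593, 799 and 995 in vehicle and 553, 743 and 1030.2 in fluoxetine, with overlapping ranges. The difference was 0.26 ± 0.078, limma adjusted p = 0.0161, with 16 of 19 lithium libraries above the fluoxetine mean, while against vehicle lithium gave 0.16 ± 0.078, limma adjusted p = 0.171 and fluoxetine -0.10 ± 0.077, limma adjusted p = 0.392. Without the olfactory-high libraries the difference between the drugs was 0.21 (adjusted p = 0.111). Wnt7b (-0.02, limma adjusted p = 0.883) and Wnt9a (-0.17, limma adjusted p = 0.15) did not pass with lithium, although Wnt9a did without WT vehicle female 3 and WT vehicle male 2 (-0.23, adjusted p = 0.0285). Over all libraries Wnt7b ran from 673 to 1736, with its lowest value in WT vehicle female 3, as labelled, and Wnt9a from 417 to 938.

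Of the receptors, Fzd7 and the co-receptor gene Lrp6 fell with lithium. Fzd7 (ENSMUSG00000041075, chr1:59482424-59486955, plus strand) had a lowest, median and highest value of 131, 193 and 285 in vehicle, 133, 198 and 264 in fluoxetine and 144, 158 and 199 in lithium. The lithium libraries had the narrowest range, and all 19 lay below the vehicle mean of their stratum, although no stratum was free of overlap. Lithium gave -0.22 ± 0.074, limma adjusted p = 0.0368 against vehicle and -0.23 ± 0.074, limma adjusted p = 0.0273 against fluoxetine; without the olfactory-high libraries these were -0.12 (adjusted p = 0.352) and -0.19 (adjusted p = 0.113). The first call was lost on leaving out any 1 of 13 libraries (adjusted p up to 0.0676): HT lithium female 1 and 2, HT lithium male 5, HT vehicle female 2 and 3, HT vehicle male 5, WT lithium female 2, WT lithium male 1, WT vehicle female 1 and 3, and WT vehicle male 1, 3 and 5. The second was lost without WT fluoxetine male 4 (adjusted p = 0.0508). Lrp6 (ENSMUSG00000030201, chr6:134446476-134566965, minus strand) ran from 1590.0 to 1905 in lithium and 1409 to 2267 in vehicle, and fell by a small amount (-0.10 ± 0.031, limma adjusted p = 0.0228, 14 of 19 libraries below). The other 8 receptor genes, Fzd1, Fzd2, Fzd3, Fzd4, Fzd5, Fzd8, Fzd9 and Lrp5, had lithium values from -0.20 (Fzd4, the receptor of norrin, adjusted p = 0.0805) to 0.10 (Fzd1, adjusted p = 0.319). Over all libraries Fzd1 ran from 314 to 562, Fzd2 from 169 to 382, Fzd3 from 2569 to 5626 and Fzd4 from 244 to 659. For the remaining receptors the ranges were Fzd5 from 25.1 to 86.1, Fzd8 from 104 to 189.5, Fzd9 from 50.7 to 146 and Lrp5 from 205 to 495.

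Of the secreted antagonists, Wif1, Sfrp1 and Sfrp2, which bind Wnt ligands outside the cell, fell with lithium. Wif1 (ENSMUSG00000020218, chr10:121033960-121100650, plus strand) had a lowest, median and highest value of 33.1, 48 and 79.4 in vehicle, 26.7, 45.3 and 73.9 in fluoxetine and 18.6, 34.8 and 57.7 in lithium, and 18 of 19 lithium libraries lay below their vehicle mean. Its change against vehicle was the largest of the members, -0.51 ± 0.12, limma adjusted p = 0.00225, and it gave -0.48 ± 0.12, limma adjusted p = 0.00326 against fluoxetine. Sfrp1 (ENSMUSG00000031548, chr8:23411502-23449632, plus strand) measured 276, 415 and 490.4 in vehicle and 259, 323 and 475 in lithium (-0.27 ± 0.064, limma adjusted p = 0.00334), and Sfrp2 (ENSMUSG00000027996, chr3:83766321-83774316, plus strand) 50.1, 89.6 and 150.5 and 34.5, 68.1 and 116 (-0.46 ± 0.13, limma adjusted p = 0.0177). The ranges of all 3 genes overlapped between drug and vehicle. Of the 12 libraries with the highest level, 9 for Wif1, 8 for Sfrp1 and 10 for Sfrp2 were high in the olfactory list. Without these libraries Wif1 gave -0.37 (adjusted p = 0.0366), Sfrp1 -0.20 (adjusted p = 0.0767) and Sfrp2 -0.28 (adjusted p = 0.138). Dkk3, an abundant member of the dickkopf family, gave 0.20 ± 0.086, limma adjusted p = 0.115, with 16 of 19 libraries above. Among feedback inhibitors, which act on dishevelled (Nkd1) or remove Frizzled receptors (Rnf43 and Znrf3), lithium gave -0.13 (limma adjusted p = 0.0887) for Nkd1, 0.10 (limma adjusted p = 0.446) for Rnf43 and -0.02 (limma adjusted p = 0.848) for Znrf3. Nkd1 passed after the GC content and length removal (-0.17, adjusted p = 0.0178) and with only the groups compared (-0.13, adjusted p = 0.0349). Over all libraries Dkk3 ran from 4091 to 9872, Nkd1 from 410.0 to 849.8, Rnf43 from 41.7 to 105 and Znrf3 from 335 to 696.

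Fluoxetine against vehicle called 2 of 39 members (5.13%), Frat1 higher and Lef1 lower, where 13.5% of all genes tested passed (6.94% higher and 6.6% lower). Read against that background, the count is no result about the members. Their median log2 fold change was -0.01, with 23 below 0. An unadjusted p under 0.05 was found for 6. The count was 6 without WT vehicle female replicate 3, and 6 without it and WT vehicle male replicate 2, which added Wnt7b, Ndp, Lrp6 and Apc. It was 1 without HT fluoxetine male replicate 4, and 3 with edgeR or DESeq2. After removal of the GC content and length trend it was 2, Lef1 and Nkd1 (-0.14, adjusted p = 0.0374), and with only the groups compared it was 3, with Fzd4 added. Within WT mice, Nkd1 fell by 0.33 on the log2 scale with fluoxetine (-0.33 ± 0.072, limma adjusted p = 0.00281) and Lef1 by 0.65, while 5.6% of all genes passed there. In HT mice 0 of 39 members passed with limma (10 with an unadjusted p under 0.05), 0 with edgeR and 1 with DESeq2, and 5.64% of all genes passed. The Nkd1 difference between genotypes was 0.41 ± 0.10, limma adjusted p = 0.106 and did not pass; DESeq2 gave 0.43 (adjusted p = 0.0211), and limma called it without HT fluoxetine female 2, HT fluoxetine male 4, HT vehicle female 5 or WT vehicle male 2 (0.43 to 0.46, adjusted p from 0.0318 to 0.0447).

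Lithium against fluoxetine called 7 of 39 members, Wnt4 higher and Wnt5a, Fzd7, Frat1, Frat2, Ctnnb1 and Wif1 lower, while 13.9% of all genes passed (7.74% higher and 6.18% lower). The count was not tested against that share. Without the olfactory-high libraries it was 5, with Wnt4 and Fzd7 lost. Leaving out WT vehicle female 3 and WT vehicle male 2, which enter this comparison only through the shared estimate of the spread, raised the count to 12, with Fzd1, Fzd9, Apc, Btrc and Sfrp2 added. With the lithium and fluoxetine groups alone it was 11. Both edgeR and DESeq2 called 9, with Fzd1 and Sfrp2 added.

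Within genotypes, lithium lowered 10 and raised 2 members in HT mice, where 8.86% of all genes passed (4.72% higher and 4.13% lower). It lowered 4 in WT mice, where 1.54% passed (0.923% higher and 0.615% lower). The test of the lithium difference between genotypes called 0 members, and 0% of all genes passed. Olfactory-high libraries were 3 of the HT vehicle females, 1 of the HT vehicle males and 0 of the HT lithium libraries. In WT mice they were 2 of the vehicle males and 2 of the lithium females. Of the 10 in HT mice, Wnt5a, Lrp6, Frat2, Ctnnb1 and Sfrp1 kept their calls on leaving out any 1 library, and Frat2 and Ctnnb1 also without the olfactory-high libraries. Without those libraries Wnt5a gave -0.32, adjusted p = 0.148, Lrp6 -0.16, adjusted p = 0.111 and Sfrp1 -0.37, adjusted p = 0.0535. Lrp6 also missed the threshold after the GC content and length removal (-0.10, adjusted p = 0.0674). Sfrp1 gave -0.44 ± 0.092, limma adjusted p = 0.00185 and Frat2 -0.48 ± 0.085, limma adjusted p = 0.000406 in HT mice. The raised members were Dvl1 (0.19 ± 0.056, limma adjusted p = 0.0267) and Rnf43 (0.39 ± 0.11, limma adjusted p = 0.0248), which without the olfactory-high libraries gave 0.18 (limma adjusted p = 0.146) and 0.24 (limma adjusted p = 0.253), and after the GC content and length removal 0.11, adjusted p = 0.0673, and 0.32, adjusted p = 0.0894. The Dvl1 call was lost without HT lithium female 1 or 3, HT lithium male 3 or HT vehicle female 4 (limma adjusted p up to 0.0855). The Rnf43 call was lost without HT lithium female 2, HT vehicle female 2, or HT vehicle male 1 or 5 (limma adjusted p up to 0.075). In WT mice the 4 were Frat2 (-0.39 ± 0.082, limma adjusted p = 0.00822), Ctnnb1, Lef1 and Nkd1. The Lef1 call there (-0.46 ± 0.12, limma adjusted p = 0.0254) was lost without WT lithium male 1 or WT vehicle female 3 (limma adjusted p up to 0.0603), and the Nkd1 call (-0.26 ± 0.072, limma adjusted p = 0.0481) on leaving out any 1 of 36 libraries (up to 0.105). Without the olfactory-high libraries the Nkd1 value was -0.23, adjusted p = 0.153; without WT vehicle female 3 and WT vehicle male 2 it was -0.23, adjusted p = 0.0837, and that of Lef1 -0.38, adjusted p = 0.0806.

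Within a single genotype and sex, lithium called 3 members in HT females (2.98% of all genes passed), 2 in HT males (0.252%), 1 in WT females (2.45%) and 1 in WT males (0.476%). Fluoxetine called 2 in HT males (5.74%), 2 in WT females (2.85%) and 1 in WT males (0.85%). In HT females fluoxetine called 0 members with limma (3 at an unadjusted p under 0.05), edgeR or DESeq2, and 0% of all genes passed. Of these calls only the fall of Ctnnb1 in HT males with lithium kept on leaving out any 1 library. Without the olfactory-high libraries 4 of the 12 calls remained: Ctnnb1 in HT males and Frat2 in WT males with lithium, and Lef1 and Nkd1 in WT females with fluoxetine. The 5 HT lithium males held a Ctnnb1 count of 14483, 14519, 14934, 15291 and 16012, and the 5 HT vehicle males 17522, 18271, 18369, 18393 and 20753, with no overlap (-0.31 ± 0.055, limma adjusted p = 0.00249).

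Genotype asked whether the pathway differed between HT and WT mice, averaged over drug and sex. Ndp was the 1 of 39 members that passed, and it rose in HT; 0.358% of all genes tested passed (0.129% higher and 0.229% lower). Norrin binds Fzd4 and is required for the retinal and brain vasculature. Ndp (ENSMUSG00000040138, chrX:16885521-16911774, minus strand) is X-linked and had a lowest, median and highest value of 167, 246 and 337 in HT and 156, 205 and 281 in WT. In HT, 24 of 29 libraries lay above the WT mean of their drug and sex, and the ranges overlapped in all but 1 of the 6 strata. The log2 fold change was 0.24 ± 0.051, limma adjusted p = 0.0122, or 18.4% higher. Group means (± SD) in vehicle were 303 ± 27.9 in HT females and 234 ± 40.4 in WT females, 249 ± 16.8 in HT males and 213 ± 32.8 in WT males. With fluoxetine they were 258 ± 33.5 and 191 ± 18.3 in females, 228 ± 49.9 and 212 ± 21.2 in males. With lithium they were 241 ± 35.3 and 226 ± 28.5 in females, 212 ± 30.5 and 179 ± 23.8 in males, so the HT mean was the higher in each of the 6 strata. Of the 12 highest Ndp libraries 7 were high in the olfactory list, and without those libraries the value was 0.23 (adjusted p = 0.091); without WT vehicle female 3 and WT vehicle male 2 it was 0.22 (adjusted p = 0.0195).

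**Figure D5:**
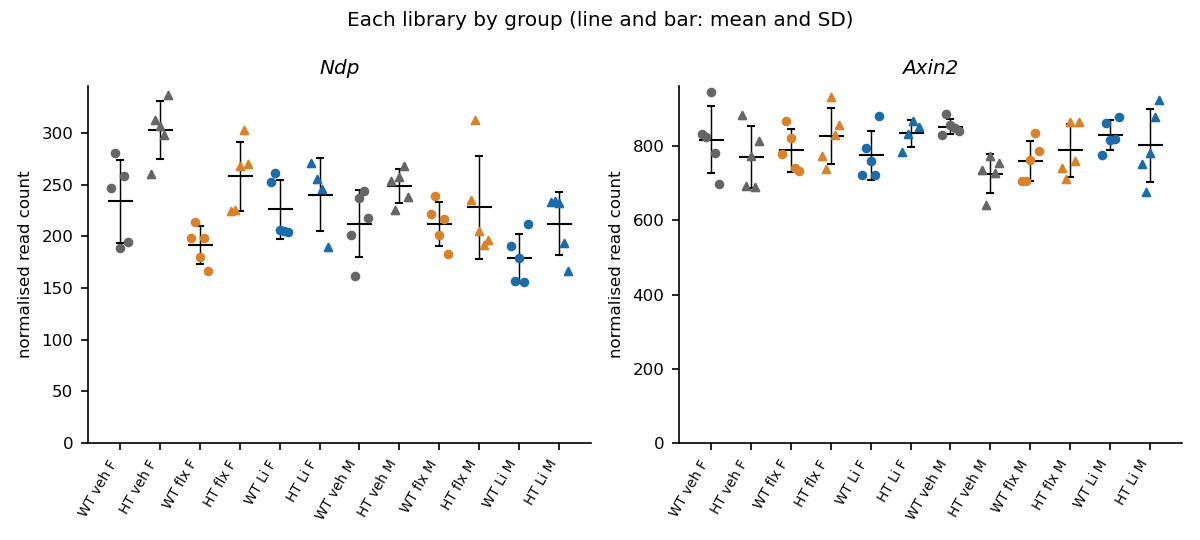
Normalised count of Ndp and Axin2 in each of the 59 libraries by group, with the group mean and SD; circles are WT and triangles HT. The HT mean of Ndp is above the WT mean in each drug and sex, and the group means of Axin2 stay between 727 and 853.

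Ndp also fell with lithium (-0.22 ± 0.063, limma adjusted p = 0.0165), from 162, 250.1 and 337 in vehicle to 156, 206 and 271 in lithium, with 17 of 19 libraries below their vehicle mean. With fluoxetine it measured 167, 215 and 312 (-0.16 ± 0.062, limma adjusted p = 0.0725). The other 38 members lay between -0.15 (Tcf7, adjusted p = 0.646) and 0.13 (Sfrp2, adjusted p = 0.857) in HT against WT. Ctnnb1 gave 0.00 ± 0.023, limma adjusted p = 0.992 and Axin2 -0.02 ± 0.032, limma adjusted p = 0.93. Within vehicle females, limma called 2 members between genotypes (Wnt5a and Csnk1a1, 6.2% of all genes passed), and within fluoxetine females 1 (Nkd1, 1.95%). The Wnt5a value (0.77 ± 0.21, limma adjusted p = 0.0252) lost its call without HT vehicle female 2 or 4 or WT vehicle female 3 or 4 (up to 0.102). Of the HT vehicle females, 3 of 5 were olfactory-high, and without the olfactory-high libraries the Wnt5a value was 0.33, adjusted p = 0.372. It also missed the threshold without WT vehicle female 3 and WT vehicle male 2 (0.76, adjusted p = 0.0656) and after the GC content and length removal (0.70, adjusted p = 0.152). The Csnk1a1 value (0.35 ± 0.081, limma adjusted p = 0.0104) lost it without HT vehicle female 4 or WT vehicle female 3 (up to 0.0995). In the same 3 settings it gave 0.26, adjusted p = 0.218, then 0.25, adjusted p = 0.0551, and 0.21, adjusted p = 0.156. The Nkd1 value (0.43 ± 0.10, limma adjusted p = 0.0145) lost it without HT fluoxetine female 3, 4 or 5 or WT fluoxetine female 3 (up to 0.0816), and without the olfactory-high libraries, 2 of them HT fluoxetine females, it was 0.36, adjusted p = 0.314. The counts were 0 with limma, edgeR and DESeq2 in vehicle males (2 at an unadjusted p under 0.05, 0.00559% of all genes passed), fluoxetine males (5, 0.386%), lithium females (2, 0.00559%) and lithium males (3, 0.00559%). Averaged over the sexes they were 0 with limma and edgeR in vehicle (9 unadjusted, 0.0112% of all genes passed), fluoxetine (4, 0.257%) and lithium mice (3, 0.0112%); DESeq2 called 1 in fluoxetine mice.

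Between females and males, 0 of 39 members passed with limma, edgeR or DESeq2, against 0.117% of all genes; 8 had an unadjusted p under 0.05 with limma. The smallest belonged to Ndp, higher in females by 0.16 ± 0.051, limma adjusted p = 0.205. The interactions of drug or genotype with sex and of drug with genotype called 0 members in each of 5 tests with limma (195 member tests). Unadjusted p-values under 0.05 numbered 9 for lithium by genotype, 10 for fluoxetine by genotype, 3 for lithium by sex, 3 for fluoxetine by sex and 4 for genotype by sex; over all genes 0%, 0.0392%, 0%, 0.425% and 0.822% passed. The smallest adjusted p was that of Lrp6 for genotype by sex (0.18 ± 0.051, limma adjusted p = 0.0639). DESeq2 called this one (0.18, adjusted p = 0.0247) and Nkd1 for fluoxetine by genotype, and edgeR called 0. With limma, Lrp6 passed without HT vehicle female 5, HT vehicle male 3, WT fluoxetine male 5, WT vehicle female 1 or 2, or WT vehicle male 1 or 4 (adjusted p from 0.04 to 0.04996).

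Other genes of the pathway were taken from a list of 71; 8 (Wnt1, Wnt3a, Wnt8a, Wnt8b, Rspo4, Dkk1, Sost and Fosl1) are not analysed here. Of all genes tested, 13.1% passed with lithium, 13.5% with fluoxetine and 13.9% between the drugs. The counts in this list were not tested against those shares. Of the 63 genes of the list that were tested, 6 rose and 8 fell with lithium, with a median of -0.05. The 6 with the smallest p-values were Ctnnbip1, an inhibitor of beta-catenin binding to Tcf (-0.16 ± 0.032, adjusted p = 0.000472), Wnt10a (0.37 ± 0.084, adjusted p = 0.00187), the R-spondin receptor gene Lgr4 (-0.28 ± 0.065, adjusted p = 0.00264), the Wnt secretion gene Wls (-0.24 ± 0.062, adjusted p = 0.00681), Wnt2 (0.45 ± 0.12, adjusted p = 0.0069) and the co-receptor gene Ryk (-0.15 ± 0.04, adjusted p = 0.0101). The kinase genes themselves did not pass: Gsk3a gave -0.02 (adjusted p = 0.737) and Gsk3b 0.00 (adjusted p = 0.993). With fluoxetine 2 rose and 7 fell, led by Ryk (-0.21 ± 0.039, adjusted p = 0.000219), Wnt10b (0.70 ± 0.15, adjusted p = 0.00149), the transcription regulator gene Id2 (0.16 ± 0.038, adjusted p = 0.00309), Tnfrsf19 (-0.16 ± 0.044, adjusted p = 0.0102), the beta-catenin co-activator gene Bcl9 (-0.14 ± 0.043, adjusted p = 0.0219) and the co-repressor gene Tle3 (-0.14 ± 0.045, adjusted p = 0.0304). Between lithium and fluoxetine 3 were higher and 8 lower with lithium. Of 6 known targets tested outside the members, 0 rose and 2 fell with lithium against vehicle (median -0.14). With fluoxetine against vehicle 1 rose and 1 fell (median -0.15). Between the drugs these targets went in different directions. Id2 (-0.24 ± 0.038, adjusted p = 1.02e-05) and Myc (-0.33 ± 0.07, adjusted p = 0.000781) were lower with lithium and Ccnd1 (0.23 ± 0.049, adjusted p = 0.000898) was higher. The other 3 of smallest p-value were Wnt10a (0.45 ± 0.084, adjusted p = 0.000145), Tle1 (-0.13 ± 0.036, adjusted p = 0.00804) and Wnt10b (-0.54 ± 0.16, adjusted p = 0.0127). None of the 63 passed between genotypes or sexes with limma, where 0.358% and 0.117% of all genes passed.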

How the data were processed

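RNA-seq of prefrontal cortex from 59 mice in 12 groups was used, as 1 deposited table of 18088 genes. Its values are a signal per gene, normalised read counts that the authors obtained by dividing each library's read counts by a size factor, per the labels. The submitters' processing notes name the quantifier Salmon 0.11.2, DESeq2 1.19.11, R 3.6.0 and the build GRCm38. The annotation, the strand setting and the gene filter were not given in the sources used here. Dividing by the value of 1 read gave whole reads for 100% of values within 0.01. An edgeR quasi-likelihood test on those reads called 2369 genes for lithium against vehicle, where limma called 2347.

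The tests were run with limma 3.58.1 (trend and robust, R 4.3.3) on log2(normalised count + 1), over 12 group means with 47 residual degrees of freedom. Genes needed 10 or more in at least 5 libraries, so 17875 were tested and 213 left out. Fold changes are on the log2(value + 1) scale, which understates low genes. P-values were Benjamini-Hochberg adjusted over all genes tested in each comparison, with a threshold of 0.05. The 39 members, the marker and pathway lists and the tests were chosen with earlier results of these data known. Members called in an average or interaction were described in full, up to 15, with Ctnnb1, Axin2, Lef1, Tcf7l2 and Ndp always given, and up to 6 other pathway genes were named per average by smallest p. Symbols and positions (GENCODE M21, GRCm38) matched 18077 genes, and promoters are from RefSeq.

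Reads carry no molecular identifiers, so PCR copies count as reads. Labels group the samples; no 2 libraries were identical. Alternatives were TMM scaling, a pseudocount of 10, no filter, a filter at 50, edgeR 4.0.16 and DESeq2 1.42.0 on recovered reads, the replicate number as a block, removal of trends with GC content and length, only the groups compared, and libraries left out. The scripts were tested on simulated data.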

Additional observations from a re-analysis of the deposited data

Results flagged for a closer look

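In groups of 4 or 5, a single library stood apart from the rest by Dixon's gap criterion 15 times over 17 members and 204 groups; chance flags about 1 in 20 groups. The library labelled WT vehicle female replicate 3 did so for Frat1 (278 normalised counts, the others 198 to 218), Tcf7l1 (167, others 111 to 118) and Tcf7l2 (773, others 109 to 141). WT vehicle female replicate 1 stood above its group for Wnt5a (490.3, others 263 to 311) and Wnt7a (481, others 346 to 377). Among HT vehicle males, replicate 2 was high for Ctnnb1 (20753, others 17522 to 18393), replicate 5 for Tcf7l1 (165, others 92.0 to 111) and replicate 4 low for Lef1 (163, others 185 to 191). Among lithium libraries, WT male replicate 5 was high for Fzd7 (189.9, others 144 to 153), HT female replicate 1 for Lrp6 (1858, others 1590.0 to 1629.7) and WT female replicate 4 for Tcf7l2 (139, others 117 to 123). WT lithium male replicate 3 was low for Sfrp2 (34.5, others 62.6 to 70.9) and HT lithium male replicate 3 for Wif1 (24.4, others 33.8 to 37.2). With fluoxetine, HT male replicate 4 was low for Apc (22552, others 28920 to 30037) and HT female replicate 3 high for Tcf7l2 (149, others 117 to 125).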

How the results depend on the processing

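Groups of 4 or 5 libraries limit what single strata can show. Cell makeup and litter were not measured apart from drug, and in 1 library the Ash1l level went against the genotype label. That library, WT vehicle female replicate 3, also held the lowest Ctnnb1 and Apc and the highest Lef1 and Tcf7l2 values, and the cause was not tested. Of the named genes' values, 288 kept direction and side of the threshold under the alternatives other than leaving out 1 library, 11 lost and 2 gained a call, and 6 changed sign. With the replicate number as a block (replicate block), the counts of called members were 14 for lithium, 2 for fluoxetine, 7 between the drugs and 1 between genotypes, as without it. Same-numbered libraries did not deviate together (mean residual correlation -0.011, 54 of 319 pairs over 0.1).

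Without the 12 libraries high in the olfactory list, an alternative chosen after seeing the data, the counts were 8 for lithium, 1 for fluoxetine, 5 between the drugs and 0 between genotypes. Without WT vehicle female 3 and WT vehicle male 2 they were 16 for lithium, 6 for fluoxetine and 12 between the drugs, and with only the groups compared 15 for lithium and 11 between the drugs. The lithium count was 19 after removal of the GC content and length trend, and 15 with edgeR, DESeq2 or the filter at 50; all of these held the 14. Leaving out 1 library at a time gave 12 to 16 for lithium, 1 to 6 for fluoxetine, 6 to 10 between the drugs, 1 to 1 between genotypes, and 0 to 1 each for fluoxetine by genotype and genotype by sex. Fluoxetine by genotype was 1 with DESeq2, and genotype by sex 1 with DESeq2 and with the filter at 50. Axin2, near 0 throughout, changed sign for lithium after removal of the dependence on GC content and gene length (-0.0025). For fluoxetine it was -3.08e-05 with TMM scaling, -0.00091 with edgeR, -0.00069 with DESeq2, -0.016 after the same removal, -0.031 without the olfactory-high libraries, and -0.013 to 0.014 on leaving out 1 library. The cause of these shifts was not tested.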
